A study of Mus musculus with 12 samples.

Results

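The Dlk1-Dio3 region of mouse chromosome 12 holds 4 imprinted genes measured here, the noncoding RNAs Meg3 (also called Gtl2), Rian and Mirg and the protein-coding gene Dlk1. Every probe set whose only gene symbol was one of these 4 was taken, which gave 19 of the 45037 probe sets, 11 for Meg3, 4 for Rian, 2 for Mirg and 2 for Dlk1. All 19 were kept, with no filter on low values. RNA came from untreated mouse embryonic fibroblasts (MEFs) in exponential growth, with 3 arrays for each of 4 groups. WT MEFs carried no deletion, Rb1KO MEFs were labelled as lacking Rb1, TKO MEFs as lacking Rb1, p107 (Rbl1) and p130 (Rbl2), and TKO-Ras MEFs as carrying the mutated Ras RasG12D on top of the TKO deletions. The labels do not say which Ras gene was used, or whether the arrays of a group came from separate embryos, cultures or clones, so the p-values measure only the spread between these RNA samples.

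Imprinted genes are expressed mainly from the chromosome copy inherited from 1 parent. In this region Meg3, Rian and Mirg are read from the maternal copy in the same direction, and Dlk1 from the paternal copy, under the control of a methylated region between Dlk1 and Meg3. Meg3 is a long noncoding RNA with growth-restraining activity in cultured cells, Rian is the host of many small nucleolar RNAs, and Mirg is the host of a cluster of microRNAs. Dlk1 is a membrane protein related to the Notch ligands that holds back the differentiation of fat cell precursors. The retinoblastoma proteins encoded by Rb1, Rbl1 and Rbl2 restrain E2F transcription factors and entry into the cell cycle.

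A promoter of Meg3 is shown because Meg3 had the largest differences between the groups, and that of Dlk1 because Dlk1 alone of the 4 genes was not called in all 3 knockout groups. Both are RefSeq sequences of GRCm38.p6 on the plus strand, 300 bases from 250 before to 50 after the annotated start, at chr12:109540746-109541045 for Meg3 and chr12:109452573-109452872 for Dlk1.
Meg3: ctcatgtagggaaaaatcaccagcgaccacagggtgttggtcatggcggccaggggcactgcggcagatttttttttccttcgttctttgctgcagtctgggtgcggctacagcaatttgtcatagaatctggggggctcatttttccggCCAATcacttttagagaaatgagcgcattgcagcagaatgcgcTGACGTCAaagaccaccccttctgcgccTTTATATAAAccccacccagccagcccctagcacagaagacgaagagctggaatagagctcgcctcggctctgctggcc
Dlk1: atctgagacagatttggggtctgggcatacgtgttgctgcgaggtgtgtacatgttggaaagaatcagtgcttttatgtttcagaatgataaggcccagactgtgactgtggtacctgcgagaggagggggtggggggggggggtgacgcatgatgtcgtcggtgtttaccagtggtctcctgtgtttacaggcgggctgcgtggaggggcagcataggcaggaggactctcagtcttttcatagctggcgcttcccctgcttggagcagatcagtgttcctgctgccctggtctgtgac
Capitals mark matches on either strand to TGACGTCA (the cAMP response element), CCAAT or TATAAA. Meg3 had 1 TGACGTCA at -57 from the start, 1 CCAAT at -100, and matches to TATAAA at -29 and -25 that overlap each other. These letters occurred in 1.79%, 37.4% and 13.6% of 32851 RefSeq promoters of the same length. Dlk1 had no match to any of them, and neither window held TTTNGCGC, searched as an E2F site and found in 1.38% of promoters. The Meg3 window held 13 CpG, more than 62.1% of promoters, and the Dlk1 window held 9, against a median of 7. RefSeq also lists another start of Meg3, with its window at chr12:109545148-109545447. That window held only 1 CpG, more than 5.43% of promoters, and no match to any of the letters searched. The windows of Rian and Mirg held 0 and 10 CpG.

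RefSeq places 1 microRNA hairpin inside Meg3, 3 inside Rian and 10 inside Mirg, all on the strand of the host. One mature sequence from each host shows what these transcripts carry, with the seed (bases 2 to 8) in capitals.
mmu-miR-770-3p, in Meg3: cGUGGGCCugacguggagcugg
mmu-miR-370-3p, in Rian: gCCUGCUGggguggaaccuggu
mmu-miR-410-3p, in Mirg: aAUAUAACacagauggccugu
The 3 seeds differ. No microRNA level was measured, and the arrays report only the host transcripts.

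Values are log2 RMA values, a normalized intensity per probe set, and each probe set is compared only with itself across groups. A value up to 5.13 was taken as background, a level under which 95% of the values of 44 olfactory receptor (Olfr) probe sets lay. Where a group was at background on every array, the fold is given as at least that from the other group's mean to the background level. A probe set was called at an adjusted p under 0.05 from limma over all 45037. In these bulk samples fewer cells with a transcript and less of it per cell cannot be told apart. The number of arrays limits the precision.

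The deleted genes were read first. Rb1 lay between 8.31 and 8.70 in WT MEFs and between 6.97 and 7.74 on the 9 knockout arrays. Rbl1 lay between 8.18 and 9.0 on the WT and Rb1KO arrays and at background on the TKO and TKO-Ras arrays. Rbl2 lay between 7.54 and 7.90 in WT MEFs, between 4.60 and 5.71 in TKO and TKO-Ras MEFs, and between 3.80 and 4.47 on the arrays labelled Rb1KO, which goes against a deletion of Rb1 alone. The positions of these probe sets in the deleted genes were not used here, and a probe set outside the deleted part checks nothing. Of 9 fibroblast markers 0 were at background on every WT array. WT replicate 3 stood apart, with a mean correlation of 0.974 with the other WT arrays, against 0.982 or more for every other array with its own group. Eif2s3y, on the Y chromosome, was 8.63, 9.12 and 4.91 in WT MEFs and at most 3.31 on the 9 knockout arrays, and Xist, expressed from an inactive X, was above background in WT MEFs only. The WT and knockout arrays thus differ in these genes as well, and the part of this difference in the results below was not tested.

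**Figure D1:**
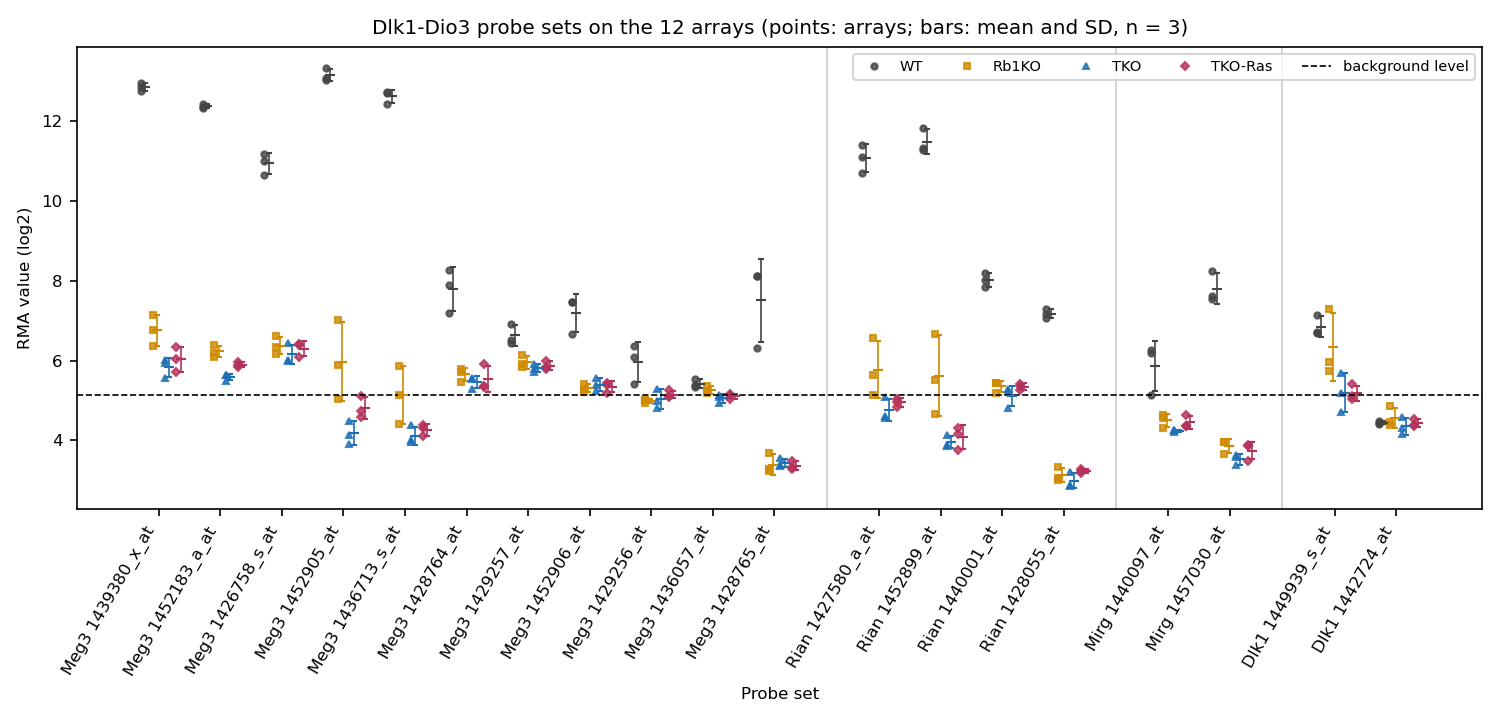
Log2 RMA value of each of the 19 probe sets, every point being 1 of the 12 arrays and every bar the group mean with its SD (n = 3). The dashed line marks background, 5.13. The WT arrays overlap with knockout arrays on Meg3 1436057_at and both probe sets of Dlk1 and lie above all 9 on the others. How often this is so over all probe sets was not counted.

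Meg3, Rian and Mirg were lower in all 3 knockout groups than in WT MEFs, on nearly every probe set. On the arrays labelled Rb1KO, 16 of the 19 probe sets were called lower, against 10.1% of all probe sets, and 0 were called higher, against 12.5%. In TKO MEFs 18 were called lower, against 9.01%, and 0 higher, against 10.5%. In TKO-Ras MEFs 18 were called lower, against 12.4%, and 0 higher, against 15.5%. The median log2 difference of the 19 was -3.94, -4.08 and -3.94, and that of all probe sets was 0.07, 0.03 and 0.09. With the bound in place of the fitted value wherever a knockout group was at background on every array, the median of the 19 was -2.38 in each comparison. The 3 comparisons share the WT arrays, and so do the values set side by side here. Of the called probe sets 13, 14 and 14 were lower by at least 2-fold, taking the bound where there is one. The share of all probe sets past that fold was not counted.

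The noncoding RNA Meg3 was bright in WT MEFs on 5 of its 11 probe sets, with means from 10.94 to 13.14. On 1452905_at, a probe set without a suffix, the values were 13.03, 13.32 and 13.07 in WT MEFs, 5.03, 7.01 and 5.88 on the arrays labelled Rb1KO, 3.91, 4.49 and 4.14 in TKO MEFs, and 4.75, 4.58 and 5.12 in TKO-Ras MEFs. The WT arrays lay far above the rest, and 1 of the 3 arrays labelled Rb1KO and all those of TKO and TKO-Ras MEFs were at background. The log2 difference from WT was -7.17 on the arrays labelled Rb1KO (95% confidence interval -8.00 to -6.33, adjusted p = 5.5e-07), a 144-fold decrease. In TKO-Ras MEFs Meg3 was at least 257-fold lower on this probe set (adjusted p = 1.1e-07).

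A second probe set of Meg3, 1436713_s_at, gave 12.70, 12.71 and 12.43 in WT MEFs, 4.40, 5.87 and 5.13 on the arrays labelled Rb1KO, 4.38, 4.0 and 3.96 in TKO MEFs, and 4.10, 4.31 and 4.38 in TKO-Ras MEFs. Only 1 knockout array, replicate 2 of Rb1KO, lay above background, and the mean of the arrays labelled Rb1KO was at the background level. Meg3 was called lower here on the arrays labelled Rb1KO (adjusted p = 5.6e-08) and was at least 179-fold lower in TKO-Ras MEFs (adjusted p = 1.7e-08).

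The 3 other bright probe sets of Meg3 stayed above background in every knockout group, so their folds are given without a bound. The margin was small in TKO MEFs, with 5.63, 5.65 and 5.49 on 1452183_a_at. All of these values are at background when the 99th percentile, 5.82, is taken instead. Whether the remaining signal on the 3 probe sets comes from Meg3 was not tested. On 1439380_x_at the WT arrays read 12.83, 12.94 and 12.75, those labelled Rb1KO 6.36, 7.13 and 6.78, the TKO arrays 5.56, 5.93 and 6.01, and the TKO-Ras arrays 6.03, 5.72 and 6.34. The TKO and TKO-Ras arrays overlapped, and both lay below the arrays labelled Rb1KO. The decrease from WT was 68.0-fold on the arrays labelled Rb1KO and 112-fold in TKO-Ras MEFs (log2 difference -6.81, 95% confidence interval -7.26 to -6.36, adjusted p = 9.1e-09). On 1452183_a_at, which reads alternative transcripts of the gene, the decreases were 70.4-fold and 88.4-fold, and on 1426758_s_at they were 23.7-fold and 25-fold. On this last probe set the knockout arrays lay between 6.0 and 6.60, above background on all 9.

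The 6 dimmer probe sets of Meg3 had WT means from 5.42 to 7.78 and smaller differences in the same direction. Of these, 1428765_at fell furthest, from 8.10, 8.12 and 6.31 in WT MEFs to between 3.23 and 3.69 on the 9 knockout arrays. It was at least 5.20-fold lower in each knockout group. This bound was 4.24-fold without WT replicate 1, 4.22-fold without replicate 2 and 7.88-fold without replicate 3. The smallest difference was on 1436057_at, where WT arrays lay between 5.33 and 5.55, close to background, and the log2 difference was -0.16 on the arrays labelled Rb1KO (adjusted p = 0.29) and -0.31 in TKO-Ras MEFs (adjusted p = 0.034). The call in TKO-Ras MEFs was lost without any 1 of WT replicates 2 and 3 or TKO-Ras replicates 1, 2 and 3. Of the 11 Meg3 probe sets only this one was not called in all 3 knockout groups. On the other dim probe sets 1428764_at, 1452906_at, 1429256_at and 1429257_at the log2 differences ran from -2.24 to -0.67 in Rb1KO and TKO-Ras against WT.

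**Figure D2:**
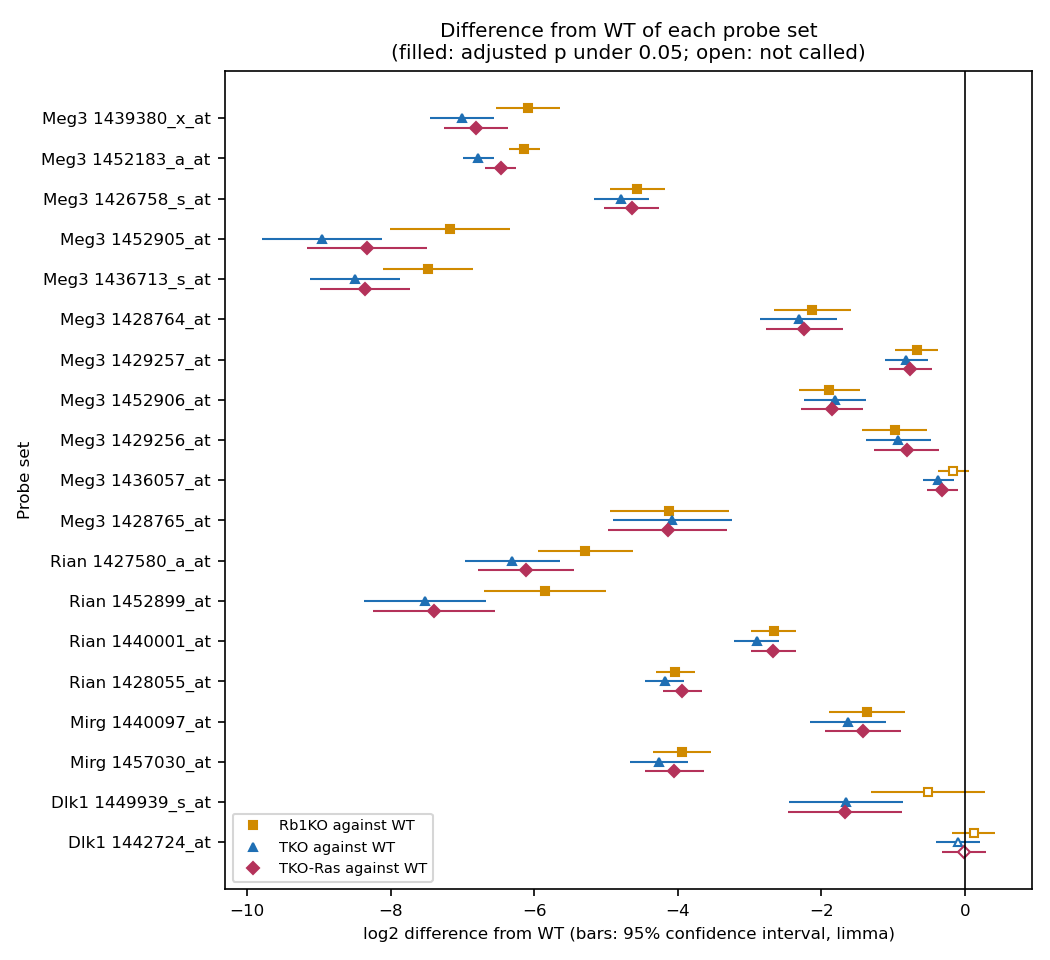
Log2 difference from WT of each probe set in Rb1KO, TKO and TKO-Ras MEFs, with bars for the 95% confidence interval of the fit over 12 arrays and filled points for an adjusted p under 0.05. The values of 1 gene differ between its probe sets, from -7.48 to -0.16 for Meg3 on the arrays labelled Rb1KO, and the 3 knockout groups lie on the same side of 0 on every probe set other than Dlk1 1442724_at.

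Rian, the host of small nucleolar RNAs, was bright on 2 of its 4 probe sets. On 1452899_at the values were 11.27, 11.83 and 11.33 in WT MEFs, 4.67, 6.67 and 5.52 on the arrays labelled Rb1KO, 3.86, 4.14 and 3.87 in TKO MEFs, and 4.32, 3.75 and 4.17 in TKO-Ras MEFs. The arrays labelled Rb1KO straddled the background level, and those of TKO and TKO-Ras MEFs were all below it. The decrease was 57.9-fold on the arrays labelled Rb1KO (log2 difference -5.85, adjusted p = 2.5e-06) and at least 81.1-fold in TKO-Ras MEFs (adjusted p = 2.6e-07). On 1427580_a_at the arrays labelled Rb1KO read 5.14, 6.56 and 5.63 and the TKO-Ras arrays 5.04, 4.84 and 4.97, against 11.09, 11.40 and 10.70 in WT MEFs. The decrease there was 39.1-fold and at least 60.9-fold. The dimmer probe sets showed the same direction, with a 6.34-fold decrease in Rb1KO and 6.36-fold in TKO-Ras on 1440001_at, and at least 4.12-fold in both on 1428055_at.

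Mirg, the microRNA host, was at background on every knockout array on both of its probe sets. On 1457030_at the WT arrays read 7.53, 7.62 and 8.24, those labelled Rb1KO 3.66, 3.95 and 3.96, and the TKO-Ras arrays 3.89, 3.50 and 3.86. Mirg was at least 6.32-fold lower in each knockout group (adjusted p = 2.2e-07 for Rb1KO and 1.1e-07 for TKO-Ras). On 1440097_at the WT arrays read 5.15, 6.27 and 6.20, so replicate 1 was barely above background, and the difference was at least 1.67-fold (adjusted p = 0.0017 and 0.0011).

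Dlk1, the paternally expressed protein-coding gene, could be followed on 1 of its 2 probe sets. On 1449939_s_at the values were 6.71, 6.70 and 7.14 in WT MEFs, 5.75, 7.30 and 5.96 on the arrays labelled Rb1KO, 5.69, 5.18 and 4.71 in TKO MEFs, and 5.10, 5.40 and 5.05 in TKO-Ras MEFs. Replicate 2 of Rb1KO was the highest of all 12 arrays, while replicates 1 and 3 lay below every WT array and above every TKO and TKO-Ras array. The log2 difference from WT was -0.51 on the arrays labelled Rb1KO (95% confidence interval -1.30 to 0.28, adjusted p = 0.35), and it was -0.996 with an adjusted p of 0.022 without replicate 2, so this 1 array decided the call. In TKO-Ras MEFs, where 2 of the 3 arrays were at background, Dlk1 was called lower than in WT MEFs with a fitted log2 difference of -1.67 (95% confidence interval -2.46 to -0.88, adjusted p = 0.005). The value in TKO MEFs, with 1 of 3 arrays at background, was -1.65 (adjusted p = 0.0074). The other probe set, 1442724_at, was at background on all 12 arrays, between 4.16 and 4.85, and gives no fold.

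The probe sets of 1 gene agreed in direction in every called difference from WT but not in size. Among probe sets with a WT mean over 10, the log2 differences of Meg3 ran from -7.48 to -4.57 on the arrays labelled Rb1KO and from -8.35 to -4.64 in TKO-Ras MEFs, and those of Rian from -5.85 to -5.29 and from -7.39 to -6.11. Among the dimmer ones Meg3 ran from -4.12 to -0.16 and from -4.14 to -0.31. Of the 19 probe sets 1 was at background on every array in WT MEFs, 6 on the arrays labelled Rb1KO, 9 in TKO MEFs and 9 in TKO-Ras MEFs.

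Agreement beyond the group means was described by the Pearson correlation of deviations from the group means over the 12 arrays, which share arrays and normalization. The 55 pairs of Meg3 probe sets had a median of 0.32, from -0.28 to 0.90, with 50 above 0. Rian had a median of 0.53 over 6 pairs, and the single pairs of Mirg and Dlk1 had 0.52 and 0.82. Within Meg3 the dim probe sets 1452906_at and 1428765_at correlated at 0.90 and 1428764_at and 1428765_at at 0.83. All 3 had their lowest WT value on replicate 3, which stood apart, and among the bright ones 1439380_x_at and 1452905_at correlated at 0.86. Replicate 2 was the highest WT array on 17 of the 19 probe sets, against 34.5% of all probe sets. With any 1 array left out, WT replicate 3 included, 16 to 17 of the 19 were called in Rb1KO against WT and 17 to 18 in both other groups against WT.

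The 3 arrays labelled Rb1KO differed among themselves on the same transcripts. Their values spanned over 1 on 5 of the 19 probe sets, Meg3 1452905_at and 1436713_s_at, Rian 1427580_a_at and 1452899_at, and Dlk1 1449939_s_at, a set chosen after the values were seen. On all 5 replicate 2 was highest and replicate 1 lowest, an order found on 16.9% of the 869 probe sets with such a span over all genes. Over all 19 probe sets replicate 2 was highest on 14, against 36.4% of all probe sets. Deviations on these 5 correlated between 0.58 and 0.95 in pairs. Over all 11 Meg3 probe sets the correlation of Dlk1 1449939_s_at ran from -0.21 to 0.81, with a median of 0.03 and 5 of the 11 below 0, and with Meg3 1439380_x_at it was 0.19. Replicate 2 did not stand apart over all probe sets, with a mean correlation of 0.993 with its group. Xist on it was 4.98, below background, against 8.79 or more in WT MEFs, and Rbl2 was 3.80. Whether RNA from other cells had a part in these values was not tested.

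**Figure D3:**
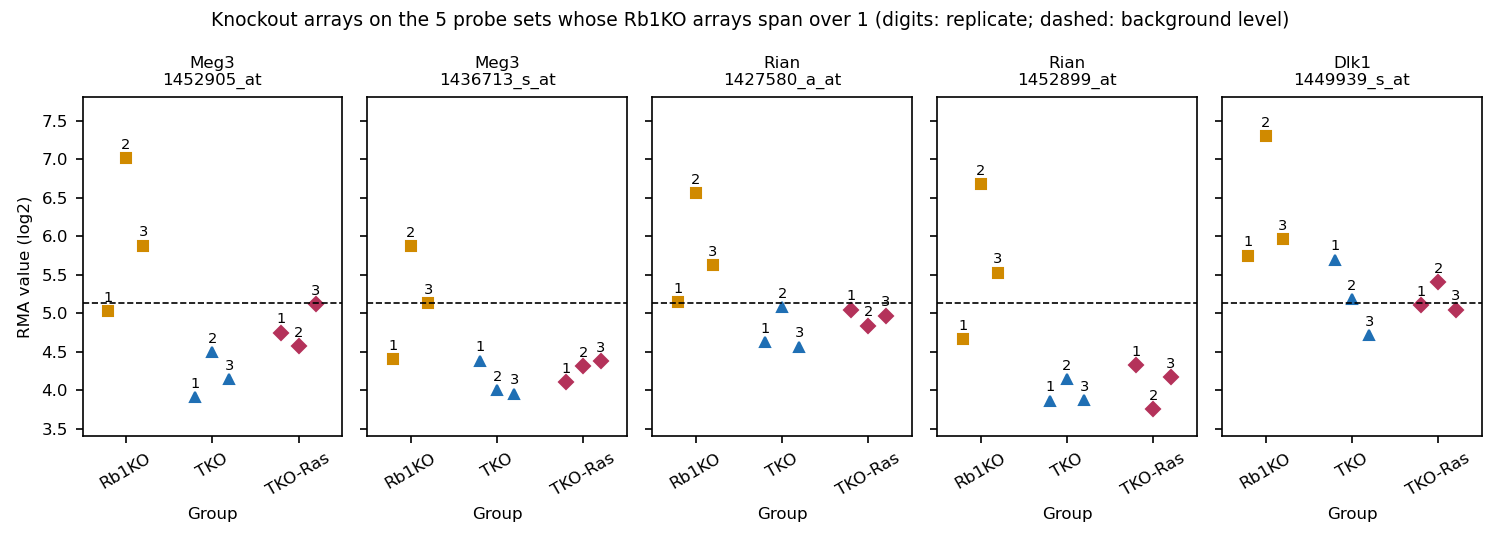
RMA values (log2) of the 9 knockout arrays on the 5 probe sets whose Rb1KO arrays span over 1, with the replicate number at each point. The dashed line marks background, 5.13. Replicate 2 of Rb1KO is highest and replicate 1 lowest in every panel, and the TKO and TKO-Ras arrays lie lower, with 1 TKO-Ras array of Meg3 1452905_at reaching above replicate 1 of Rb1KO.

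TKO MEFs, labelled with 2 more deletions than Rb1KO MEFs, were compared with them directly. Here 4 of the 19 probe sets were called lower, against 2.99% of all probe sets, and 0 higher, against 4.19%. They were Meg3 1439380_x_at (log2 difference -0.92, 95% confidence interval -1.37 to -0.47, adjusted p = 0.019), Meg3 1452183_a_at (-0.64, adjusted p = 0.002), Meg3 1452905_at (at least 1.79-fold lower, adjusted p = 0.015) and Rian 1452899_at (at least 1.40-fold lower, adjusted p = 0.024). Dlk1 1449939_s_at did not pass, with a log2 difference of -1.14 (95% confidence interval -1.93 to -0.35, adjusted p = 0.088), although every TKO array lay below every array labelled Rb1KO. Of the 19 differences 16 were negative, with a median of -0.24, against -0.04 over all probe sets. On 5 probe sets both groups were at background on every array, so no difference could be seen there. The count was 1 without TKO replicate 1, 2 without Rb1KO replicate 3 or TKO replicate 3, and 6 without WT replicate 3, and Meg3 1439380_x_at did not pass once TKO replicate 1 or either of Rb1KO replicates 2 and 3 was left out. Rian 1452899_at did not pass without Rb1KO replicate 3 or without TKO replicate 1, 2 or 3. Meg3 1452905_at did not pass without TKO replicate 1 or 3.

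TKO-Ras MEFs were compared with TKO MEFs, from which they differ by label in the mutated Ras. An effect of Ras cannot be told apart here from a difference between the cultures used. No probe set was called by limma, 0 of 19 lower against 3.13% of all probe sets and 0 of 19 higher against 2.54%, and 1 had an unadjusted p under 0.05. This was Meg3 1452183_a_at, at 5.63, 5.65 and 5.49 in TKO MEFs and 5.90, 5.96 and 5.84 in TKO-Ras MEFs, whose groups did not overlap (log2 difference 0.31, 95% confidence interval 0.10 to 0.52, adjusted p = 0.096). The count was 0 under every alternative setting run. On Meg3 1439380_x_at the difference was 0.19 (95% confidence interval -0.26 to 0.65), and on Dlk1 1449939_s_at it was -0.01 (-0.80 to 0.78). The differences of the 19 ran from -0.07 to 0.63, 16 of them positive, with a median of 0.15 against 0.04 over all probe sets. Both groups were at background on 9 of the 19, including both probe sets of Mirg and 3 of the 4 of Rian, where neither a fall nor its absence could be seen.

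Against the arrays labelled Rb1KO, TKO-Ras MEFs had 1 probe set called lower, against 4.35%, and 0 higher, against 4.44%. This was Rian 1452899_at, at least 1.40-fold lower (adjusted p = 0.029). Meg3 1439380_x_at lay just outside, with a log2 difference of -0.72 (95% confidence interval -1.17 to -0.27, adjusted p = 0.051), and Dlk1 1449939_s_at had -1.15 (95% confidence interval -1.94 to -0.36, adjusted p = 0.077). The groups did not overlap on either. The order of the means on Meg3 1439380_x_at was thus WT, Rb1KO, TKO-Ras and TKO, of which TKO-Ras did not pass against either of its neighbours. On Rian 1427580_a_at WT was highest and Rb1KO next, TKO and TKO-Ras were both at background and have no order, and only WT passed against another group. The count of called probe sets was 0 without Rb1KO replicate 3, TKO-Ras replicate 1 or TKO-Ras replicate 2, 2 without WT replicate 3 and 6 without Rb1KO replicate 1, so it depends on single arrays. The call of Rian 1452899_at was also lost without TKO-Ras replicate 3, without moderation of the variance, and with only the groups compared.

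The genes on either side of the region were read to see how far along the chromosome the differences reached. Of 20 listed neighbours in RefSeq order 16 had a probe set, 7 before Dlk1 and 9 after Mirg. Rtl1 and Dio3, imprinted genes of the region itself, were among those not measured. On the arrays labelled Rb1KO 2 neighbours were lower and 4 higher, in TKO MEFs 1 and 2, and in TKO-Ras MEFs 1 and 4, and the medians were 0.11, 0.13 and 0.15. The shares of all probe sets called lower were 10.1%, 9.01% and 12.4%, and those called higher 12.5%, 10.5% and 15.5%. The differences of the neighbours lay between -0.995 and 0.99 in all 3 comparisons. Rcor1, a corepressor subunit, had log2 differences of -0.79, -0.93 and -0.91 (adjusted p = 0.02, 0.0099 and 0.0081). Cinp, a CDK2-interacting protein, had 0.92, 0.99 and 0.99, and Yy1, a zinc finger factor on the Dlk1 side with other genes between, had 0.36, 0.36 and 0.38. The call of Rcor1 in Rb1KO was lost without WT replicate 1 or Rb1KO replicate 1 or 3, and that of Yy1 in TKO without TKO replicate 2. In TKO-Ras against TKO 0 of the 16 were called, against 3.13% lower and 2.54% higher over all probe sets.

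**Figure D4:**
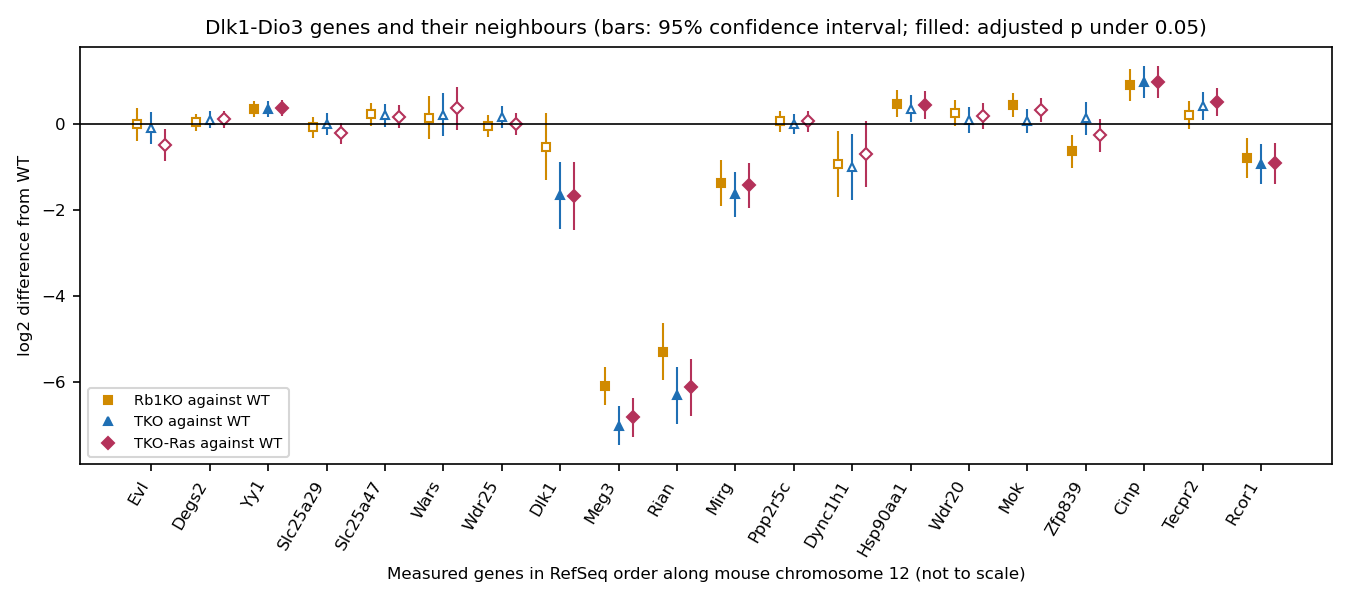
Log2 difference from WT of the 4 genes of the region and of the 16 measured neighbours, in RefSeq order along the chromosome and not to scale, with 95% confidence intervals and filled points for an adjusted p under 0.05. The brightest probe set stands for each gene. The fitted values of Meg3, Rian and Mirg lie below -1 in all 3 knockout groups and the neighbours lie between -0.995 and 0.99. Mirg on this probe set is at background on every knockout array, so its difference is only known to be at least 1.67-fold. That bound is smaller than the largest differences of the neighbours. The other probe set of Mirg, 1457030_at, was brighter in WT MEFs and was at least 6.32-fold lower in each knockout group.

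Factors that set or keep imprints were read beside the region, from a list of 18 genes, all measured. On the arrays labelled Rb1KO 1 was lower and 7 were higher, in TKO MEFs 2 and 7, and in TKO-Ras MEFs 3 and 7, with medians of 0.27, 0.17 and 0.17. Among all probe sets 10.1%, 9.01% and 12.4% were called lower, and 12.5%, 10.5% and 15.5% higher. Uhrf1, which brings the maintenance methyltransferase to newly made DNA, rose by log2 differences of 2.12, 2.17 and 2.14, and that methyltransferase, Dnmt1, by 1.57, 1.27 and 1.46. The Polycomb enzyme Ezh2 rose by 1.44, 1.27 and 1.18. Dnmt3a, which sets new methylation, was lower by -2.39 on the arrays labelled Rb1KO (adjusted p = 2.7e-05) and by -1.58 in TKO-Ras MEFs (adjusted p = 0.00036), while its difference of -0.37 in TKO MEFs did not pass (adjusted p = 0.31). TKO was above Rb1KO by 2.02 (adjusted p = 0.00025), and TKO-Ras was below TKO by -1.21 (adjusted p = 0.0096). Aff3, which binds imprinted control regions, was called lower in TKO and TKO-Ras MEFs, where 1 of 3 arrays in each was above background, and did not pass on the arrays labelled Rb1KO. Its fitted differences of -3.12, -3.13 and -0.30 in TKO, TKO-Ras and Rb1KO rest on WT replicate 3, which read 9.68 against 7.27 and 7.14, and were -2.30, -2.30 and 0.52 without it. A part of any of these factors in the levels of Meg3, Rian, Mirg or Dlk1 was not tested.

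Genes linked to the known roles of Dlk1, Notch signalling and fat cell differentiation, gave another list of 17, all measured. On the arrays labelled Rb1KO 2 were lower and 1 higher, in TKO MEFs 2 and 4, and in TKO-Ras MEFs 5 and 1. Over all probe sets 10.1%, 9.01% and 12.4% were called lower in these 3 comparisons, and 12.5%, 10.5% and 15.5% higher. The adipocyte lipid carrier Fabp4 had log2 differences of -2.33, 1.20 and -1.60, of which that in TKO MEFs did not pass with all arrays and passed without WT replicate 3 or TKO replicate 1 (1.58 and 1.66, adjusted p = 0.015 for both). Pparg, the regulator of fat cell differentiation, had 0.32 (not called) on the arrays labelled Rb1KO and -1.19 in TKO MEFs, and, with every TKO-Ras array at background, was lower there by at least 3.27-fold. Fn1, the fibronectin gene, fell in all 3 groups, by 1.70, 1.42 and 1.77 on the log2 scale. In TKO-Ras against TKO 4 of the 17 were lower, against 3.13% of all probe sets, and 0 higher, against 2.54%. Dlk1 itself differed by -0.01.

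Markers of the cell types that the cultures could hold were read as well. Of all probe sets, 10.1%, 9.01% and 12.4% were called lower against WT in Rb1KO, TKO and TKO-Ras, and 12.5%, 10.5% and 15.5% higher. Of 9 fibroblast markers 6 were lower and 0 higher on the arrays labelled Rb1KO, 5 and 0 in TKO MEFs, and 6 and 1 in TKO-Ras MEFs, and their summed level ran from 16.81 to 17.10 on the log2 scale in WT MEFs, from 16.13 to 16.26 on the arrays labelled Rb1KO, from 16.38 to 16.44 in TKO MEFs and from 16.05 to 16.13 in TKO-Ras MEFs. Neural and glial markers were lower for 2, 3 and 3 of 8, with 0, 1 and 1 higher, and those of cartilage and bone for 2 of the 4 measured in each group, with 2, 0 and 0 higher. Of adipocyte markers 1, 0 and 1 of 4 were lower, and of endothelial markers 1, 0 and 0 of 5. No muscle, epithelial or leukocyte marker was lower in the 3 comparisons with WT, and 0, 0 and 2 of 6 muscle, 1, 2 and 2 of 5 epithelial, 0, 2 and 1 of 5 leukocyte and 0, 0 and 1 of 5 endothelial markers were higher. At background on every WT array were 4 of 5 endothelial, 3 of 4 adipocyte and 3 of 6 muscle markers. A part of cell type composition in the falls of Meg3, Rian, Mirg and Dlk1 was not tested.

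The genes whose pattern was most like that of Meg3 1439380_x_at, by Pearson correlation over the 12 arrays among 1784 probe sets whose group means spanned at least 2, were Gspt2 (0.992), Lama2 (0.990), H13 (0.990), Gnai1 (0.990), Chsy3 (0.989) and Tll1 (0.989). Lama2, a laminin subunit, had means of 9.90 ± 0.20 in WT MEFs, 6.30 ± 0.24 on the arrays labelled Rb1KO, 6.07 ± 0.25 in TKO MEFs and 5.93 ± 0.07 in TKO-Ras MEFs (SD, n = 3 arrays each). All 6 had a higher mean in WT MEFs than in the 3 knockout groups, which fixes most of such a correlation. H13 stayed above background in the knockouts, with means of 9.02, 8.76 and 8.76 against 10.81 in WT MEFs. Dlk1 1449939_s_at had other genes nearest to it, Fli1 (0.924), Wnt5a (0.920), Rnf130 (0.903), Cd302 (0.894), Zfp709 (0.889) and Tcaf2 (0.888). Wnt5a, a secreted signalling protein, had means of 8.89 ± 0.29, 7.31 ± 0.86, 4.17 ± 0.30 and 3.98 ± 0.32 in WT, Rb1KO, TKO and TKO-Ras MEFs (SD, n = 3 arrays each). The TKO and TKO-Ras means lay under the background level. The Rb1KO mean lay between those of WT and the triple knockouts, as on Dlk1, where Rb1KO was not called against any other group. Such a shared order is largely fixed, because Wnt5a was picked by its correlation with Dlk1 over the same arrays.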

How the data were processed

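The 12 arrays (Affymetrix MOE430 2.0) hold 3 RNA samples for each of 4 genotypes of MEFs, labelled from 100 ng of RNA. The authors made the deposited log2 values with RMA in Partek 6.5, as the submitters' processing notes and the methods state. The scale is not named and was taken from the range of 2.18 to 14.92. RMA makes the arrays alike in distribution, so differences are relative to the other probe sets, and very low values are compressed.

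The 64 control probe sets were left out. Probe sets were named through the platform annotation, and those with several gene symbols name no gene. Each of the 45037 probe sets was fitted with limma 3.58.1 (R 4.3.3, lmFit and eBayes) on all 12 arrays with 6 contrasts, 2-sided, with Benjamini-Hochberg adjustment over all probe sets, and tested on simulated data. Background was defined on 44 olfactory receptor (Olfr) probe sets, as their 95th percentile over the arrays. Genes outside the region were each read from their brightest probe set. Genes named beyond the 4 were list members with the largest called differences or a role in the region, and the 6 most correlated per gene. Summed marker levels are log2 of summed linear values. The members, lists and tests were chosen with earlier results of these data known. The alternatives tried were eBayes with a trend and robust, no moderation of the variance, array weights, a replicate block, only the groups compared, median centring, cyclic loess, a filter on dim probe sets, the mean of a gene's probe sets, the 90th and 99th percentiles for the background, and each array left out in turn. Leaving out arrays for the genes outside the region, and WT arrays for the folds of the members, was chosen after seeing the data. Motifs were counted with Python 3.11.15.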

Additional observations from a re-analysis of the deposited data

How the results depend on the processing

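The differences of Meg3, Rian and Mirg from WT, each on its brightest probe set, kept their direction and passed under all 189 recomputed values for the 3 knockout groups (highest adjusted p 0.0233). The comparisons among the knockout groups did not. The count for TKO against Rb1KO was 1 without moderation and 1 to 6 with 1 array left out. For TKO-Ras against Rb1KO it was 3 with array weights, 0 with only the groups compared, 2 with median centring, 3 with only probe sets above background, and 0 to 6 with 1 array left out.

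In TKO against Rb1KO, Meg3 did not pass without moderation (-0.92, adjusted p = 0.0624) or with the mean of all its probe sets (-0.45, adjusted p = 0.0980), and ran from -1.12 to -0.73 with 1 array left out. Rian passed with the mean of its probe sets (-0.77, adjusted p = 0.0365), and ran from -1.34 to -0.63. In TKO-Ras against Rb1KO, Meg3 passed with median centring (-0.72, adjusted p = 0.0465) and with the filter on dim probe sets (-0.72, adjusted p = 0.0383) and ran from -0.92 to -0.54 with 1 array left out, Rian from -1.14 to -0.43 and Mirg from -0.14 to 0.015. Dlk1 passed there with array weights (-1.04, adjusted p = 0.0443) and ran from -1.45 to -0.67. Dlk1 ran from -0.996 to -0.22 in Rb1KO against WT and from -0.25 to 0.23 in TKO-Ras against TKO, where the mean of its probe sets gave 0.035. Dlk1 1442724_at, at background throughout, changed sign in TKO-Ras against WT with median centring (0.0044) and ran from -0.066 to 0.018 there and from -0.021 to 0.22 in Rb1KO against WT with 1 array left out. The causes were not tested.

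The replicate numbers were not taken to pair the samples. Of the correlations of same-numbered deviations 8 of 18 were above 0.1 (-0.21 to 0.31). Among the 12 arrays 5 correlated best with an array of their own number. Whether same-numbered samples were handled together was not tested. With the replicate block the count for TKO against Rb1KO was 5, Rian passed in it (-1.02, adjusted p = 0.0426), and no other call changed. Of the results on single probe sets 25 of 985 recomputed values lost their call, most on Meg3 1436057_at and Rian 1452899_at. With the 99th percentile as background, 5.82, the probe sets at background on every array were 2, 10, 16 and 14 of 19 in WT, Rb1KO, TKO and TKO-Ras MEFs, so the depth of the falls is limited by the background of the arrays.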
